A study of Mus musculus with 12 samples.

Results

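The data described here are the kainate response of the hippocampus of control mice, measured on 6 of the 12 arrays of the series: 3 arrays of control animals given kainate and 3 of control animals given saline, chosen by their titles. The animals were littermates of both sexes, aged 5 to 6 weeks, kept singly and handled for 5 days, and injected intraperitoneally with 20 mg/kg kainate or with saline. Hippocampi were taken 1 h after the injection, and the RNA of 3 animals was combined for each array, so an array is a pool and not 1 animal. The labels call the animals control, without naming an allele or a strain. The other 6 arrays carry animals labelled mutant with the same treatments, and the mutation, going by the title of the series, is a loss of CREB and CREM. Each array was an Affymetrix MG-U74B, whose values are log2 intensities per probe set, a group of short probes for 1 transcript. Of 12411 probe sets, 6334 exceeded a log2 value of 4 on 3 or more of the 12 arrays and were tested, and 5925 of these named 1 gene, for 4617 genes in all.

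Kainate is an agonist of ionotropic glutamate receptors that evokes seizures starting in the hippocampus. Strong firing lets calcium into neurons and activates the ERK cascade and other kinases, which act on factors already bound at promoters, such as CREB and SRF, so that the immediate early genes are transcribed without new protein synthesis. Many of these genes code for transcription factors, and others code for phosphatases and adaptors that switch the same kinases off again or for proteins of the synapse.

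Several features of the arrays bear on every value below. The titles number the arrays of each group 1, 2 and 3 without saying what a number stands for, and arrays with the same number deviated together from their group means, so the response was read within each number as well as between group means. The number-1 arrays stood apart. The differences of kainate minus saline had an SD over all tested probe sets of 0.299 within number 1, 0.419 within number 2 and 0.488 within number 3. Across probe sets the differences of numbers 2 and 3 correlated with r = 0.596, against 0.245 for numbers 1 and 2 and 0.297 for numbers 1 and 3. These pairs share no array, and without the genes called below the 3 values were 0.581, 0.193 and 0.255. Array medians in the series lay between 3.77 and 4.07. The 3' minus 5' difference of the beta-actin control probe sets, a sign of RNA length, was 1.51 to 1.82 with saline and 1.62 to 1.82 with kainate. The 3' beta-actin level itself was 12.95 and 13.28 in the number-1 arrays and 13.61 to 13.98 in the other 4, and the part of this gap in the results was not tested. The 3' level of Gapdh, another control gene, showed no such gap, at 13.220 and 13.265 in the number-1 arrays and 13.198 to 13.363 in the other 4.

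The number of genes that passed depended on how the numbers were treated. A limma fit of group means over all 12 arrays, with p-values adjusted by Benjamini-Hochberg at 0.05, called 9 probe sets higher with kainate (0.142% of those tested) and 1 lower (0.0158%). With the replicate number as a block in the fit, 17 rose (0.268%) and 20 fell (0.316%), and these include all 10 of the first fit. When the 6 control arrays alone were fitted with the block, 17 of these calls were kept, all 10 of the first fit among them. Of those 10, Dusp5, Csrnp1, Spty2d1 and Rgs4 passed in all 6 fits of group means that left out 1 control array, Ciart in 4, Maff in 2, Acsl4, Spry2 and Fosl2 in 1 each and Trib1 in 0. Where they did not pass, the adjusted p was 0.0518 to 0.153 for Acsl4, 0.0518 to 0.0774 for Spry2, 0.135 to 0.217 for Fosl2 and 0.0774 to 0.287 for Trib1. For Maff it was 0.0518 to 0.0726, and for Ciart 0.0518 without saline array 1 and 0.0534 without kainate array 2. Without the number-1 arrays, 180 rose (2.84%) and 457 fell (7.22%). Without the number-2 arrays, or without the number-3 arrays, 1 probe set passed, that of Dusp5. In the rest of the text a gene "rose" or "fell" where it passed in the fit with the block, unless another fit is named, and a change is the mean of the 3 within-number differences in log2.

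**Figure D1:**
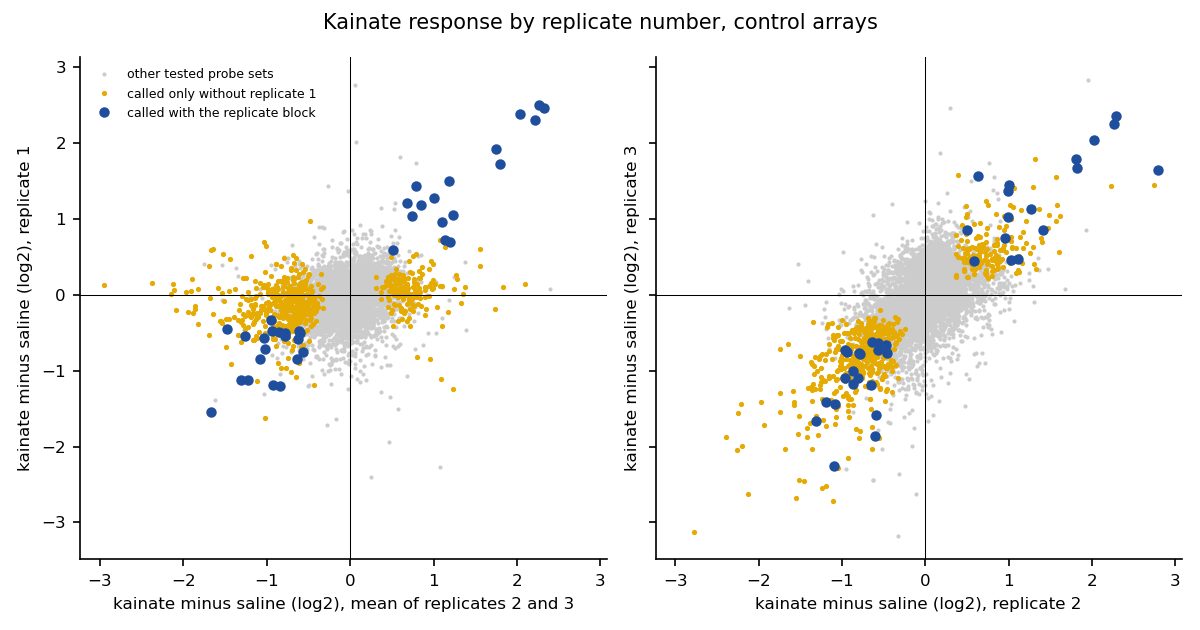
Each point is a tested probe set of the control arrays. The left panel sets the kainate minus saline difference (log2) of replicate 1 against the mean difference of replicates 2 and 3, and the right panel sets replicate 3 against replicate 2. Blue points passed with the replicate block, yellow points only in the fit without replicate 1, and grey points in neither. The blue points lie along the diagonal in both panels, while the yellow ones spread along the diagonal on the right (r = 0.596 over all probe sets) and lie close to a replicate 1 difference of 0 on the left.

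The genes with a rise of like size in all 3 numbers were few. A difference above 0.5 in every number was found for 23 probe sets (0.363%) and one below -0.5 for 62 (0.979%). The difference was above 0 in all 3 numbers for 1691 probe sets (26.7%) and below 0 for 1293 (20.4%). All 3 kainate values lay above all 3 saline values for 831 (13.1%) and below them for 397 (6.27%).

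Transcription factors of the immediate early kind were the list with the highest median. Of 36 genes listed, 14 were on the array and 10 were tested. Of the 10, 5 rose with the block and 0 fell, 7 rose and 0 fell without number 1, and 8 were higher in all 3 numbers and 1 lower. The median change was 0.62, against 0.02 over all tested genes, and by number it was 0.65, 0.54 and 0.85. Among all 4617 genes 0.325% rose and 0.412% fell with the block, and 3.53% rose and 8.69% fell without number 1.

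Csrnp1, a cysteine- and serine-rich nuclear protein that binds DNA, read 5.12, 5.32 and 5.27 in saline arrays 1 to 3 and 7.63, 7.59 and 7.52 in kainate arrays 1 to 3. Its change was 2.34 (SE 0.19), 5.08-fold, with an adjusted p of 0.000438 in limma's fit of group means and 0.000133 with the block. Maff, a small MAF protein that dimerises with other basic leucine zipper factors but has no activation domain, read 3.59, 3.91 and 3.54 with saline and 5.97, 5.94 and 5.59 with kainate. It rose by 2.15 (SE 0.27, limma adjusted p = 0.0099). For both genes every kainate array was above every saline array, and number 1 gave the largest of the 3 differences. The Maff values of all saline arrays lay below 4, so it entered the test through its kainate arrays alone, and such low GCRMA values make its log difference and p uncertain. Among the 17 probe sets that rose, the same holds for that of Cwc25.

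Fosl2, an AP-1 subunit of the FOS family, was measured by 2 probe sets that both passed with the block. The brighter read 9.30, 9.41 and 9.34 with saline and 10, 10.68 and 10.47 with kainate, a change of 1.03 (SE 0.16, limma adjusted p = 0.0372). The other changed by 0.84 (SE 0.23), with an adjusted p of 0.38 in the fit of group means and 0.0188 with the block. The saline values did not overlap the kainate values in either. The differences of the dimmer set were 1.04, 1.03 and 0.46 in numbers 1 to 3, and those of the brighter set were 0.70, 1.27 and 1.13, so the number with the smallest rise was not the same.

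Nr4a3, an orphan nuclear receptor, rose by 0.54, with differences of 0.59, 0.58 and 0.44 (block SE 0.09, adjusted p = 0.0318 with the block and 0.284 without). It was well expressed before treatment, at 9.20 ± 0.09 (SD, n = 3) with saline and 9.74 ± 0.17 (SD, n = 3) with kainate. Irf2bp2, a nuclear corepressor, rose by 1.06 (adjusted p = 0.0351 with the block and 0.284 without), and its saline values spread from 6.32 to 7.27. Of the listed factors that did not pass with the block, Nr4a2 changed by 0.44, Nfil3 by 0.36 and Mafg by -0.11.

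Klf6 and Srf passed only without number 1. Klf6, a zinc finger factor, read 5.59, 7.96 and 7.58 with saline and 6.12, 8.46 and 8.65 with kainate. Its number-1 arrays were both lower than every other array, and the differences within numbers were 0.54, 0.50 and 1.07 (adjusted p = 0.0871 with the block and 0.794 without). Srf, the serum response factor, was measured by 3 probe sets. They changed by 0.73, 0.68 and -0.17, of which the second passed without number 1 (adjusted p = 0.0114), and the third was the brightest.

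Promoters of 4 genes that rose in all 3 numbers, and that of Srf for comparison, which did not pass with the block, are shown because CREB, SRF, AP-1 and EGR factors have short known binding motifs. RefSeq windows on GRCm38.p6, from 250 bases before to 50 after a start, were searched on both strands for the cAMP response element TGACGTCA, its shorter core TGACG, the AP-1 site TGANTCA, the CArG box of SRF and the EGR site GCGTGGGCG. A full cAMP response element contains the core on both strands. Of the 15 genes that rose, 13 had a window, and 6 of the 13 held the core (46.2%), against 36.6% of the 3750 tested genes with a window. The 16 genes with a window among those that fell held it in 7 cases (43.8%). Of all 32851 windows, 20.8% held the core, 1.79% the full element, 7.81% the AP-1 site, 1.63% the CArG box and 0.612% the EGR site. Below are Dusp5, Csrnp1 and Maff, which had the largest rises among genes with a window, Nr4a3, which had the most cores, and Srf, 5′ to 3′ with the matches in capitals.
Dusp5 (chr19:53528895-53529194, plus strand): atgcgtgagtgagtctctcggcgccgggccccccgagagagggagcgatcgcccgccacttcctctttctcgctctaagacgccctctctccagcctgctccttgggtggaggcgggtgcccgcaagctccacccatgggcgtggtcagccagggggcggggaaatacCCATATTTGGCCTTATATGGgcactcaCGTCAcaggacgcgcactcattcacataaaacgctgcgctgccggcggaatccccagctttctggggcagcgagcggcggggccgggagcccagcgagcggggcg
Csrnp1 (chr9:119982974-119983273, minus strand): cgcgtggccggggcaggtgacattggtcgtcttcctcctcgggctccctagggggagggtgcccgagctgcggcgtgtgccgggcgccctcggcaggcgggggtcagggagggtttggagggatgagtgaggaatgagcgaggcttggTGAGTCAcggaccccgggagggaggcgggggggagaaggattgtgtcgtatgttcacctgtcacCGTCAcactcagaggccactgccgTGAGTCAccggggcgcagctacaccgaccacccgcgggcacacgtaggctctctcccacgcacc
Maff (chr15:79347270-79347569, plus strand): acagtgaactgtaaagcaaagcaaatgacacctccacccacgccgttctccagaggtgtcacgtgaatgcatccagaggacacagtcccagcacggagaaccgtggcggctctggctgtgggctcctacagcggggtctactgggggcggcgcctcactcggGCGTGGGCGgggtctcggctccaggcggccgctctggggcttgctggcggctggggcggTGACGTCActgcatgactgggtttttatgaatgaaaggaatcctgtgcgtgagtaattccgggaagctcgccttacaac
Nr4a3 (chr4:48045055-48045354, plus strand): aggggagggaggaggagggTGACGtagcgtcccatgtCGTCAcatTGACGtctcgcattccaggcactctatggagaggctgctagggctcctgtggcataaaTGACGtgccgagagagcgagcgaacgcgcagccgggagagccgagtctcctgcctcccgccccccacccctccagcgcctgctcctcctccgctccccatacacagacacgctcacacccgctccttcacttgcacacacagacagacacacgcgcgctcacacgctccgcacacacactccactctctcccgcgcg
Srf (chr17:46556113-46556412, minus strand): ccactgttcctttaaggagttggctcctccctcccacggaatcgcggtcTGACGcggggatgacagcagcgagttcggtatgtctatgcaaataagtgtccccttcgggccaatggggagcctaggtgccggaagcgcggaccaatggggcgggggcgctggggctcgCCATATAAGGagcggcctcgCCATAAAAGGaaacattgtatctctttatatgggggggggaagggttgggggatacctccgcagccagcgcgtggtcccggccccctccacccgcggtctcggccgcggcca
The Dusp5 window held 2 CArG boxes and 1 core, and the Srf window likewise. The Csrnp1 window, 1 of 4 for this gene, held 2 AP-1 sites and 1 core. The Maff window, 1 of 3, held the full element and an EGR site, and the Nr4a3 window held 4 cores. Csrnp1 and Maff are shown by their window with the most kinds of motif, and Nr4a3 was chosen for its cores. Their matches are therefore not to be set against the shares over all windows. A match describes these letters and shows no binding. Rgs4 and Cwc25 also held the core, and Ciart, Fosl2, Spty2d1, Irf2bp2, Dot1l, Fbxo33 and Spry2 had none of the 5 motifs in these windows.

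Among feedback inhibitors of kinase signalling, Dusp5, Trib1 and Spry2 rose. They are 3 of 14 tested genes for MAP kinase phosphatases, Sprouty, SPRED, Tribbles and SOCS proteins (21.4%, against 0.325% of all genes), of which 0 fell with the block and 1, Spred1, fell without number 1. In all 3 numbers 9 were higher (64.3%, against 26.8% of all genes) and 3 lower (21.4%, against 20.3%), with a median change of 0.27. Dusp5, which dephosphorylates ERK in the nucleus, read 8.12, 8.01 and 7.91 with saline and 10.58, 10.29 and 10.27 with kainate. Its change of 2.37 (SE 0.12) was 5.17-fold, and its adjusted p was 5.21e-06 in limma's fit of group means. The 3 differences of 2.46, 2.29 and 2.36 were closer together than those of any other of the 4 genes with a change above 2.

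Trib1, a pseudokinase of the Tribbles family, read 5.93, 5.46 and 5.99 with saline and 8.23, 8.25 and 7.63 with kainate, a change of 2.24 (SE 0.35, limma adjusted p = 0.041). Spry2, an inhibitor of signalling from receptor tyrosine kinases to ERK, read 8.61, 9.03 and 8.93 with saline and 10.11, 10.02 and 10.31 with kainate. It rose by 1.29 (SE 0.17, limma adjusted p = 0.0099). The groups did not overlap for either gene, and Trib1 varied more between numbers, from 1.64 to 2.79.

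The rest of the list did not pass with the block. Dusp6, a cytosolic ERK phosphatase, changed by 0.77 and Spry1 by 0.65, while Dusp4 changed by 0.26 and 0.39 on 2 probe sets. Spred1, an inhibitor of RAS and ERK signalling, went the other way on all 5 of its probe sets, with changes of -1.12, -0.97, -0.73, -0.39 and -0.10. The first read 7.59, 7.34 and 7.66 with saline and 6.45, 6.32 and 6.45 with kainate, with no overlap (adjusted p = 0.0644 with the block, 0.284 without, and 0.00479 without number 1). The first 3 passed without number 1, and the last, the brightest, did not. Dusp7 changed by -0.49.

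Rgs4, which speeds up GTP hydrolysis by Gi and Gq proteins, read 9.42, 9.38 and 9.34 with saline and 10.70, 10.37 and 10.36 with kainate. It rose by 1.10 (SE 0.11, limma adjusted p = 0.00187). Of 5 tested genes with a symbol that begins with Rgs, the binding protein gene Rgs7bp among them, it alone passed in either direction. That was 20%, against 0.325% of all genes. The other 4 had changes from -0.54 to 0.14 over their probe sets, and the list's median was -0.21. The 3 tested genes of mRNA decay and stress feedback, Tob2, Sertad2 and Chac1, changed by 0.15 to 0.37 and did not pass.

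**Figure D2:**
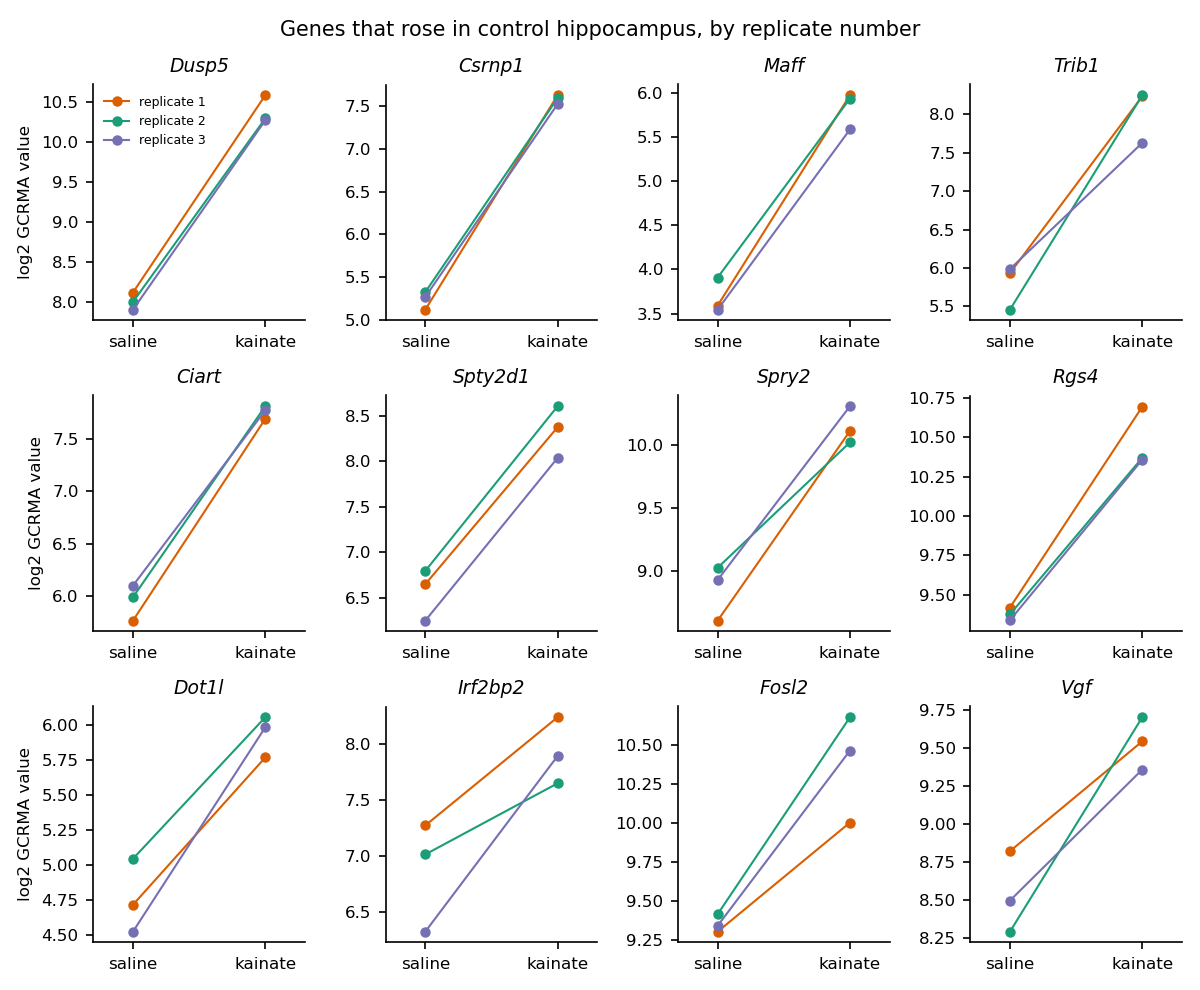
Log2 GCRMA values of 12 genes that rose with the replicate block, in the 3 saline and 3 kainate control arrays, with a line joining the arrays of the same replicate number. Vertical scales differ between panels and do not start at 0. Every line rises, and in each of the 12 panels the kainate values lie above all saline values. Maff was tested through its kainate arrays alone, so its separation is no support for a rise. Dusp5 goes from 7.91 to 8.12 with saline to 10.27 to 10.58 with kainate.

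A list of 14 tested genes, labelled activity-regulated synaptic and secreted genes, split in direction. With the block 3 rose (21.4%, against 0.325% of all genes) and 1 fell (7.14%, against 0.412%), and the median change was -0.03. The rises were of Vgf, Fbxo33 and Spty2d1 and the fall of Acsl4. The list also holds genes of other function, such as Spty2d1, Acsl4 and Mbnl2, so these counts do not describe synaptic or secreted proteins alone. Vgf, the precursor of secreted neuropeptides, read 8.82, 8.29 and 8.50 with saline and 9.55, 9.70 and 9.36 with kainate, a rise of 1.00 (adjusted p = 0.0351 with the block and 0.216 without). Fbxo33, a substrate receptor of ubiquitin ligases, rose by 0.96 (adjusted p = 0.019 with the block and 0.144 without).

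Spty2d1, a histone chaperone also known as SPT2, read 6.65, 6.79 and 6.25 with saline and 8.37, 8.60 and 8.03 with kainate. It rose by 1.77 (SE 0.19, limma adjusted p = 0.00399). Its identifier carries the letter f, which marks probes that several sequences of a family can share, so the identity of this signal is less certain. Its other probe set changed by 0.35 and did not pass.

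Homer1, a postsynaptic scaffold with a short activity-induced form, was measured by 2 probe sets with different outcomes. One read 4.11, 4.25 and 4.01 with saline and 5.84, 5.19 and 4.64 with kainate, a change of 1.10 (adjusted p = 0.0639 with the block and 0.398 without). The other, at a mean level of 9.27, changed by -0.06. The first showed no overlap between groups, with a difference that was largest in number 1, and which form either set detects was not examined.

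In the chromatin and clock lists few genes passed with the block. Dot1l, a methyltransferase of histone H3, read 4.72, 5.04 and 4.53 with saline and 5.77, 6.05 and 5.98 with kainate, a rise of 1.17 (adjusted p = 0.0197 with the block and 0.0567 without). Mllt10, a cofactor of Dot1l, went from 5.75, 4.77 and 4.62 to 4.21, 3.67 and 2.37, a fall of 1.63, with an adjusted p of 0.0188 with the block and 0.424 without. The Mllt10 values of both groups did not overlap, and 2 of the 3 kainate values lay below the level of 4 used in the filter. Over 78 tested chromatin genes 2 rose, Dot1l and Spty2d1 (2.56%, against 0.325% of all genes). In the same list 1 fell (1.28%, against 0.412%), and the median change was 0.00.

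Ciart, a repressor of the circadian CLOCK and BMAL1 factors, read 5.77, 5.99 and 6.10 with saline and 7.69, 7.81 and 7.77 with kainate. It rose by 1.81 (SE 0.22, limma adjusted p = 0.00759). Of 10 tested clock genes it was the only one to pass with the block (10%, against 0.325% of all genes). The probe sets of Per3, Cry2, Clock, Nr1d2, Csnk1e, Hlf, Rora, Nfil3 and Bhlhe41 changed by -0.54 to 0.38. Cwc25, a spliceosome-associated protein, completed the genes that rose, with differences of 1.44, 1.11 and 0.47 (adjusted p = 0.048 with the block and 0.424 without). Its saline values of 3.1 to 3.66 were all below 4, as for Maff, so these differences start from values near background.

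Of the genes that did not pass with the block, the probe sets with the largest steady rises were those of Homer1, Kdm6b, Klf6, Srf, Depp1, Dicer1, Hyi and Septin8. Their smallest within-number differences lay between 0.50 and 0.63. Depp1, an autophagy regulator induced by FOXO factors, read 3.64 to 3.78 with saline and 4.16 to 4.71 with kainate. Dicer1, the ribonuclease that makes mature miRNAs, read 4.40 to 5.04 with saline and 5.08 to 5.56 with kainate. The groups did not overlap for Dicer1. Depp1 exceeded 4 with kainate alone and was tested through those arrays, so its separation is no support for a rise. Without number 1, these probe sets of Kdm6b, Klf6, Srf, Hyi and Septin8 passed and those of Homer1, Depp1 and Dicer1 did not.

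The genes that fell in all 3 numbers do different jobs. Of the 20 probe sets, for 19 genes, only that of Acsl4 passed in the fit of group means. Acsl4, which couples arachidonate and other long fatty acids to coenzyme A, read 5.34, 4.85 and 4.92 with saline and 4.15, 3.91 and 4.17 with kainate, a fall of 0.96 (SE 0.14, limma adjusted p = 0.0237). Without number 1 its fall was 0.84 (adjusted p = 0.00702).

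Of the lists, small GTPase regulators (73 tested), endosome, Golgi and trafficking (92) and synaptic vesicle and exocytosis (43) had 0 falls with the block, and the falls are named here 1 by 1. Rictor, the defining subunit of the TORC2 kinase complex, read 8.03, 7.51 and 7.45 with saline and 7.49, 6.42 and 6.01 with kainate, a fall of 1.02 (adjusted p = 0.0263 with the block and 0.424 without). The kainate value of number 1 lay among the saline values, so the groups overlapped. Acap2, a GTPase-activating protein for ARF6, fell on both of its probe sets, by 0.57 and 1.01. The adjusted p-values were 0.0314 and 0.0263 with the block and 0.424 for both without. The set that fell by 1.01 had a mean level of 3.97, near background, and its groups overlapped. The brighter set read 9.66, 9.49 and 9.31 with saline and 9.16, 8.92 and 8.68 with kainate, with no overlap.

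Mtmr4, a phosphatase of endosomal phosphoinositides, fell by 1.19 (adjusted p = 0.0495 with the block), and its other probe set, with differences of -1.71, -0.14 and -0.41, did not pass. Abhd17c, an enzyme that removes palmitate from synaptic proteins, fell by 0.69, and Lyst, a regulator of lysosome size, by 0.63. Ap5m1, a subunit of the AP-5 adaptor, fell by 0.70.

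Of the lists, 1 of 176 ubiquitin and proteasome genes (0.568%), 1 of 136 zinc finger factors and 2 of 71 mitochondrial genes fell with the block, against 0.412% of all genes. Mex3c, an RNA-binding ubiquitin ligase, read 9.18, 9.48 and 9.07 with saline and 8.69, 8.51 and 8.34 with kainate, a fall of 0.73 (adjusted p = 0.0263 with the block and 0.158 without), with no overlap. Timm29, of the carrier import complex of the inner mitochondrial membrane, fell by 0.71, and Dbt, the transacylase of branched-chain amino acid breakdown, by 0.78. Naa50, an amino-terminal acetyltransferase, fell by 1.14 and Cdc37l1, a co-chaperone of HSP90, by 0.75. Kbtbd8, a substrate adaptor of cullin 3, fell by 1.00. The called probe sets of Dbt and Kbtbd8 carry the letter f, so their identity is less certain, and the other probe sets of these genes changed by 0.06 and 0.10. Zbtb14 and Thap11, both zinc finger factors, fell by 1.24 and 0.57, Zbtb14 with all 3 control kainate values below 4. Fam118a, Zcchc14 and Sccpdh fell by 0.92, 0.87 and 0.61. All 20 differences of number 1 were below 0, a sign that the choice of these genes favours.

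Of the falls that did not pass with the block, those with the largest steady differences were of Clic6, Spred1, Klhl2, Gmfb, Syncrip, Cpm, Mtdh and Zfp84. Klhl2, an actin-binding kelch protein, read 8.70, 8.60 and 8.14 with saline and 7.78, 7.01 and 6.87 with kainate, a change of -1.26 (adjusted p = 0.0728 with the block and 0.00289 without number 1). Gmfb, an actin regulator named glia maturation factor beta, changed by -0.71 and -0.72 on its 2 probe sets, with no overlap on either. Mtdh changed by -0.70, -0.43 and -0.07 on 3.

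Most calls made without number 1 were small in that number. The 180 rises had a median difference of 0.10 in number 1, 0.79 in number 2 and 0.61 in number 3. In number 1, 128 of them had the same sign and 22 were over 0.5. The 457 falls had medians of -0.15, -0.74 and -0.78, with 325 of the same sign in number 1 and 55 past -0.5. The values for numbers 2 and 3 are those that chose these probe sets, and number 1 took no part in the choice. In number 1 over all tested probe sets, 142 were over 0.5 and 337 below -0.5, against 478 and 705 in number 2 and 669 and 876 in number 3.

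The genes with the largest changes without number 1 are named here after their values were seen. Ythdf3, a reader of N6-methyladenosine in mRNA, read 5.70, 6.79 and 6.13 with saline and 5.83, 4.02 and 3.00 with kainate. Its difference was 0.13 in number 1 and -2.77 and -3.13 in numbers 2 and 3 (limma adjusted p = 0.00181 without number 1 and 0.424 with all arrays). The other 2 probe sets of the gene changed by -0.50 and -0.31 and did not pass.

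Lin7c, a PDZ scaffold of synapses and cell junctions, read 8.43, 8.73 and 8.50 with saline and 8.23, 6.53 and 6.52 with kainate, so the kainate array of number 1 stayed close to saline. Tmem47, a membrane protein of cell junctions, fell without number 1 on 2 of its 3 probe sets, by 2.15 and 1.26. In number 1 their differences were 0.01 and -0.28. Gda, a guanine deaminase with a role in dendrites, behaved in another way, since its saline value was 2.72 in number 1 and 5.29 and 5.84 in the others, against 2.88, 3.17 and 3.21 with kainate. All kainate values of this probe set, control and mutant, lay below 4, so it was tested through saline arrays alone. Its differences end near background and are uncertain. The other probe set of Gda changed by -0.33.

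Among the rises without number 1, Kdm6b, a histone H3 demethylase that removes a repressive mark, read 2.13, 4.22 and 4.22 with saline and 2.73, 5.78 and 5.77 with kainate. It was higher in all 3 numbers (0.60, 1.56 and 1.55), while both number-1 arrays read below 3 (adjusted p = 0.0653 with the block and 0.00575 without number 1). Lims2, an adaptor of integrin-linked kinase, read 6.59, 5.87 and 5.77 with saline and 6.69, 7.45 and 6.96 with kainate. Zmat5, a zinc finger protein of the minor spliceosome, had differences of -0.19, 1.81 and 1.66. Ilrun, an inhibitor of antiviral and inflammatory transcription, was called as a rise in this fit but had -1.23 in number 1 against 1.07 and 1.41, on a probe set with the letter s. Irf2bpl, a relative of Irf2bp2, had 0.01, 1.29 and 1.42, and its other probe set, at 0.08, 0.08 and 0.33, did not pass.

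**Figure D3:**
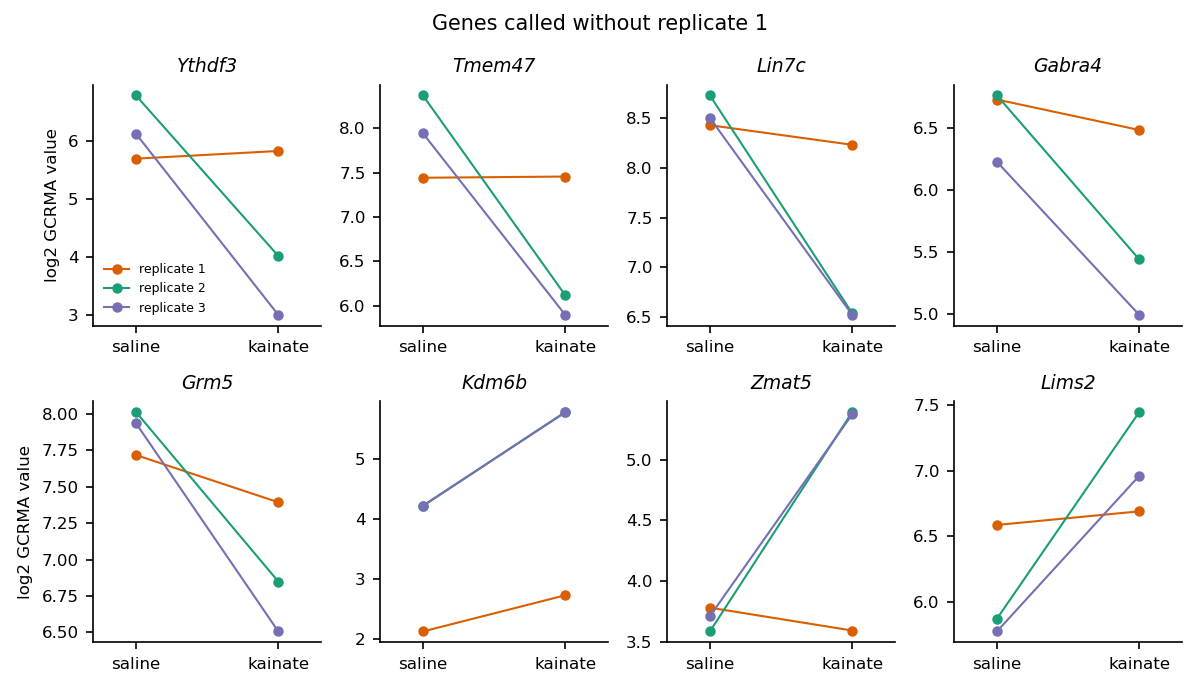
Log2 GCRMA values of 8 genes called in the fit without replicate 1, in the 3 saline and 3 kainate control arrays, with a line joining arrays of the same replicate number and vertical scales that differ between panels. The lines of replicates 2 and 3 are steep in all panels and that of replicate 1 is nearly flat for Ythdf3, Tmem47 and Lims2, while for Kdm6b replicate 1 rises from 2.13 to 2.73 at a lower level.

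Without number 1, Grm5, Gria1, Gria3 and Gabra4 fell and 4 channel genes rose, in a fit in which 8.69% of all genes fell and 3.53% rose. The 4 tested glutamate receptor genes were lower in all 3 numbers, with a median change of -0.35, and 3 of them fell without number 1 (75%) while 0 passed with the block. Grm5, the metabotropic receptor mGluR5, read 7.72, 8.01 and 7.94 with saline and 7.39, 6.85 and 6.51 with kainate, a change of -0.97 (adjusted p = 0.0914 with the block and 0.00281 without number 1), with no overlap. The AMPA receptor subunit genes Gria1 and Gria3 had differences of -0.03, -0.37 and -0.49 and of -0.15, -0.67 and -0.41, and both fell without number 1. Gria1 values overlapped between groups and Gria3 values did not. Grm3 changed by -0.22 and did not pass.

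Of 4 tested GABA receptor genes, Gabra4 fell without number 1, with differences of -0.25, -1.32 and -1.24, and the median change of the list was -0.22. Of 20 potassium channel genes and their partners, 3 rose without number 1 and 0 fell. Those were Kcnip3, a calcium-binding partner of A-type channels, with differences of -0.04, 1.04 and 0.63, Kcng2, with 0.07, 0.80 and 0.47, and Kcnt1, a sodium-activated channel, with 0.21, 0.43 and 0.72. Of 12 sodium and calcium channel genes 1 rose, Cacna2d2, with -0.12, 0.82 and 0.66. The potassium list had a median change of 0.05 and the sodium and calcium list of 0.15.

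Genes measured by several probe sets gave a check that the array numbers do not. For 1017 genes with 2 or more tested probe sets there were 1676 pairs, of which 994 had changes of the same sign (59.3%), with a correlation of 0.203 over the pairs. The share was 58.4%, 57.3% and 56.1% in numbers 1, 2 and 3, and 61.8% in the 505 pairs with both mean levels over 6. The median gap between 2 probe sets of a gene was 0.26, and pairs share a gene where it has over 2 probe sets.

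The other probe sets of genes that rose with the block had the same sign in 4 of 4 pairings, with a median change of 0.61 against 1.02 for the called ones. These pairings come from 3 genes, since the Fosl2 pair counts in both directions. The called Cwc25 probe set was tested through its kainate arrays alone, so its pairing is no support for a rise. For the genes that fell, 10 of 16 pairings (62.5%) from 12 genes had the same sign, with medians of -0.14 and -0.76. The Acap2 pair again counts in both directions. Of the 16, only the pairings within Acap2 had both probe sets called, 1 of them at a mean level of 3.97, near background. Without number 1 the other probe set had the sign of the called one in 67.7% of 65 pairings for rises and 68.5% of 372 for falls, and it was called too in 12.3% and 21.0%. The median of the other probe sets was 0.18 for rises and -0.18 for falls, against 0.68 and -0.82 for those called.

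**Figure D4:**
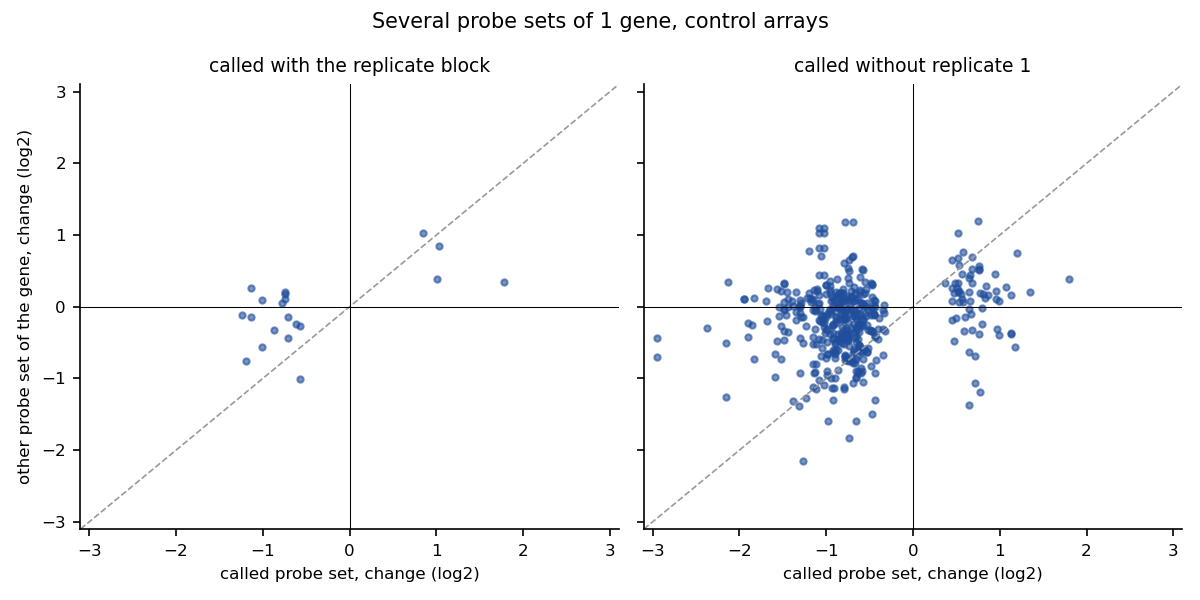
Change (log2, mean of the 3 within-number differences on the left and of replicates 2 and 3 on the right) of a called probe set on the x axis and of another tested probe set of the same gene on the y axis, with a dashed line where both are equal. Points gather between the dashed line and a change of 0 for the other probe set, which had the same sign in 4 of 4 pairings for rises and 10 of 16 for falls on the left. The 4 pairings come from 3 genes, of which Cwc25 was tested through its kainate arrays alone.

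Named examples show both outcomes. Of the genes with several probe sets, 55 had all of them higher in all 3 numbers (5.41%) and 65 had all lower (6.39%). The rising ones with the largest mean change were Fosl2, Spty2d1, Cwc25, Gatb, Irf2bpl and Ddx27, and the falling ones Mtmr4, Ecrg4, Acap2, Ube2q2, Ppp4r2 and Gmfb. The 2 probe sets of Ppp4r2, a regulatory subunit of protein phosphatase 4, changed by -0.84 and -0.61. Those of Ddx27, a nucleolar RNA helicase, changed by 0.57 and 0.45.

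Cdc37l1 gave the opposite case, with 1 probe set that fell by 0.75 and 3 others at 0.10, 0.21 and 0.18. Mbnl2, a splicing regulator, was the gene with the most tested probe sets, 7. Of these, 2 fell without number 1, with changes over all arrays of -0.82 and -0.67, and the other 5 changed by -0.19 to 0.77 and did not pass. Septin8 had 1 probe set at 0.97, with the letter s for probes shared by several transcripts, and 3 others at 0.13, -0.23 and -0.21.

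**Figure D5:**
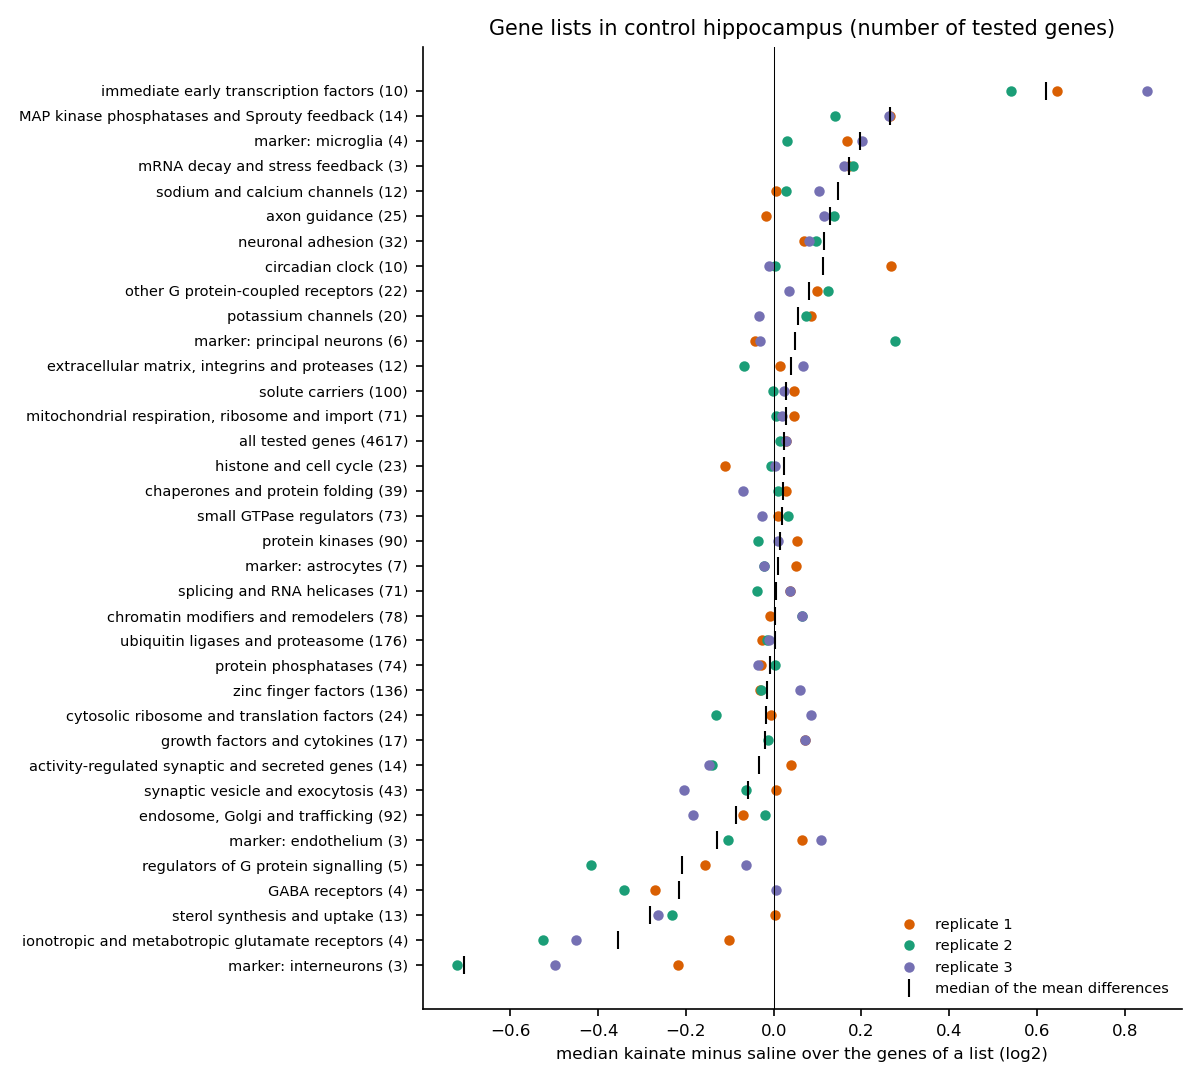
Median kainate minus saline difference (log2) over the tested genes of each list with at least 3, for replicates 1, 2 and 3 and for the mean difference (bar), a gene being given by its brightest probe set. Immediate early transcription factors lie farthest to the right in all 3 replicates (0.65, 0.54 and 0.85) and interneuron markers farthest to the left in the mean (-0.70), with most large lists near 0.

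Other gene classes showed small medians. Sterol synthesis and uptake, with 13 tested genes, had 0 called with the block and a median of -0.28, which was 0.00 in number 1, -0.23 in number 2 and -0.26 in number 3. Synaptic vesicle and exocytosis genes (43 tested) had a median of -0.06, endosome, Golgi and trafficking genes (92) of -0.09, neuronal adhesion genes (32) of 0.11 and axon guidance genes (25) of 0.13. In the trafficking list 12 genes fell (13.0%, against 8.69% of all genes) and 1 rose (1.09%, against 3.53%) without number 1. In all 3 numbers 28 of the 92 were lower (30.4%, against 20.3% of all genes) and 12 higher (13%, against 26.8%). In the axon guidance list the netrin receptor gene Unc5a and a probe set each of the secreted cues Slit3 and Sema3c rose without number 1. That was 12% of the list, against 3.53% of all genes. In the same fit Rgmb fell (4%, against 8.69%). The number-1 differences of the 3 rises were all below 0, at -0.19, -0.41 and -0.23. The other Sema3c probe set was lower in all 3 numbers, at -0.41, -0.65 and -0.47, and did not pass, so the direction of Sema3c is unsettled.

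Most of the larger lists held more falls than rises without number 1, as did the whole set of genes. Of 176 tested genes for ubiquitin ligases and the proteasome, 25 fell (14.2%) and 6 rose without number 1. Of 71 genes for splicing and RNA helicases, 13 fell (18.3%) and 1 rose, and of 74 for protein phosphatases 12 fell (16.2%) and 5 rose. These 2 lists had 111 and 116 probe sets, against 5925 for all 4617 genes. A gene counts if any of its probe sets passed, so more probe sets per gene raise their shares. For 100 solute carriers 9 fell (9%) and 0 rose, and for 90 protein kinases 8 fell (8.89%) and 6 rose (6.67%). The shares of all tested genes were 8.69% falling and 3.53% rising, so the falls of these last lists are near the background. Zinc finger factors (136), small GTPase regulators (73), chaperones (39), cytosolic ribosome and translation (24), mitochondrial respiration, ribosome and import (71), histone and cell cycle (23), extracellular matrix (12), other G protein-coupled receptors (22) and growth factors with their receptors (17) had medians between -0.02 and 0.08.

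The level of a probe set went with its difference. Probe sets were split into 5 equal groups by mean level. In the group with the lowest levels, 3.32 to 4.52, the median difference was 0.10 in number 1, 0.04 in number 2 and 0.32 in number 3. In the highest group, from 7.72 to 13.1, it was -0.02, -0.05 and -0.09. Of the 20 falls with the block 6 lay in the lowest group and 4 in the highest, and of the 17 rises 1 and 7. Without number 1 the lowest group held 29 falls and 7 rises, and the highest 166 and 89. The part of level in the calls was not tested.

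Markers of cell types were read because bulk RNA cannot tell fewer cells of a type from less RNA per cell. The defining genes of principal neurons were present, with a level (log2 of the summed intensities of the tested genes) of 13.3 to 13.4 with saline and 13.3 with kainate over 6 of 12 listed genes, Rbfox3, Neurod2 and Slc17a7 among them. Astrocyte markers (7 of 12) summed to 13.7 to 13.8 and 13.6 to 13.8, oligodendrocyte markers (2) to 9.95 to 10.1 and 9.73 to 10.2, and microglia markers (4) to 8.25 to 8.43 and 8.34 to 8.37. Within the astrocyte list Slc1a3, a glutamate transporter, was lower in all 3 numbers on both of its probe sets (changes of -0.88 and -0.32), of which the first fell without number 1 (adjusted p = 0.00281). Endothelial markers (3) summed to 7.19 to 8.23 and 7.07 to 7.41.

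The summed levels of interneuron and choroid plexus markers were lower on the kainate arrays. The 3 tested interneuron markers of 12 listed, Gad2, Maf and Cnr1, summed to 10.7, 11 and 10.8 with saline and 10.5, 10.3 and 10.4 with kainate. Gad1 was on the array but below the level of the filter. Cnr1 had a mean level of 10.46, against 6.01 for Gad2 and 6.79 for the brighter Maf probe set. The sum therefore mostly follows Cnr1 alone. Gad2, a glutamate decarboxylase that makes GABA, had differences of 0.06, -1.11 and -2.72, and each of the 3 genes had a probe set that fell without number 1. With the block 0 passed. Maf, a transcription factor, changed by -0.70 on that probe set and by 0.22 on its other, which did not pass. The choroid plexus markers Clic6 and Sostdc1, 2 of 12 listed, summed to 8.28, 8.28 and 8.34 with saline and 7.16, 8.02 and 7.42 with kainate. Clic6, a chloride channel family protein, changed by -1.54 (adjusted p = 0.0926 with the block), and its values did not overlap. The part of cell composition in the other changes was not tested.

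The same comparison in the arrays labelled mutant, which share no array with the control comparison, is given for the genes above as a description. All 17 probe sets that rose in controls had a change above 0 there, with a median of 1.13 against 1.10 in controls. All 20 that fell had a change below 0 with a median of -0.40 against -0.83, and each of the 20 was smaller in size, in genes that were chosen on their control values. The shares of all tested probe sets with these signs in the mutant arrays were not counted. Maff and Cwc25 exceeded 4 in kainate arrays alone, mutant arrays included, so their sign there is no support for a rise. Dusp5 changed by 2.65 against 2.37, Csrnp1 by 2.04 against 2.34 and Maff by 2.65 against 2.15. Spty2d1 changed by 0.52 against 1.77, with mutant differences of 0.81, 0.18 and 0.56. Its difference of responses was -1.26 (SE 0.27) and did not pass. Of 6334 probe sets, 0 (0%) passed limma's test of the difference between responses with or without the block, and at an unadjusted p under 0.05 there were 147 without it and 566 with it. The differences of the mutant arrays had an SD over all tested probe sets of 0.292 within number 1, 0.441 within number 2 and 0.389 within number 3. Across probe sets the control and mutant differences correlated with r = 0.106 in number 1, 0.749 in number 2 and 0.419 in number 3. Ythdf3 had mutant differences of 0.36, -2.37 and -2.68, Lin7c of 0.26, -1.44 and -1.11 and Grm5 of -0.28, -1.49 and -1.36.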

How the data were processed

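The deposited table held 1 log2 value per probe set and array, which the authors computed by GCRMA under R 2.4.1, as the submitters' processing notes say. This method subtracts background according to probe sequence and draws low values together. Its settings are, in the sources used here, not given. No other files were used. The depth of an array is not defined, and the number of arrays limits the precision.

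All 12 arrays, 3 in each of 4 groups, entered limma 3.58.1 in R 4.3.3 (lmFit, eBayes with intensity trend). Of 12477 entries 66 were Affymetrix controls. In the platform annotation 10581 probe sets had 1 symbol, 178 several and 1652 none, and 10550 matched the GRCm38.p6 gene table by Entrez identifier. Nothing was named from a set with several symbols. The numbers were taken to pair arrays because all 18 same-numbered pairs of arrays in different groups deviated together (r from 0.361 to 0.881, against 0.309 to 0.583 for numbers 2 and 3 of different groups). All 12 arrays correlated best with their own number. For control kainate and saline arrays r was 0.692 in number 1, 0.398 in number 2 and 0.416 in number 3. The last 2 values lie within the range for unlike numbers, so by themselves they show no pairing of these arrays. The labels call the arrays biological replicates, so p-values measure the spread between pools.

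Members, the 37 lists and the tests were chosen with earlier results of these data known. Some lists were built from symbol prefixes and hold a few genes of other function. A gene in a list counts as called if any of its probe sets passed. Named genes are those called with or without the block, the 8 largest steady rises and falls below the threshold, up to 4 genes a list with the smallest p, the genes whose probe sets all moved one way, and their other probe sets. The fits that leave out number 2 or 3, and number 1 with other scaling, were added after seeing the data. The calculations were tested on simulated data.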

Additional observations from a re-analysis of the deposited data

How the results depend on the processing

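The 10 calls of group means were 11 with quantile normalization, 10 with median centring of the arrays, 10 without an intensity trend, 10 without the filter on low values and 8 with a filter at 6. With the replicate block they were 37, or 26 with the block and quantile normalization (15 rising, 11 falling) and 34 with the block and median centring (18 rising, 16 falling). The 6 control arrays alone gave 4, and 31 with the block, of which 17 were among the 37 calls with all arrays. Leaving out 1 control array gave 4 to 8 calls. Leaving out 1 number in all groups gave 1 to 637. Without number 1 the count was 791 with the block, 665 with quantile normalization (38.5% rising, against 28.3%), 815 with median centring (40.5% rising) and 677 with the block and quantile normalization. Of the 37 calls with the block, 25 were kept with quantile normalization, 33 with median centring, 35 without number 1 and 1 without number 2 or without number 3. Quantile normalization kept 547 of the 637 calls made without number 1. The cause was not tested, and these fits have fewer arrays. Dusp5, Csrnp1, Spty2d1 and Rgs4 passed in all 6 fits that left out 1 control array, Ciart in 4, Maff in 2, Spry2, Fosl2 and Acsl4 in 1 each and Trib1 in 0. Counts of differences past 0.5 in all 3 numbers, 23 rising and 62 falling, were 15 and 42 with the filter at 6, 121 and 328 at a threshold of 0.25, 7 and 3 at 1, and 35 to 129 and 99 to 403 with 2 numbers. The share of same-sign pairs, 59.3%, was 57.2% with quantile normalization and also with median centring, 62.6% with the filter at 6, 60.8% for identifiers without a letter, 68.2% in the 22 pairs of called genes and 56.3% to 60% with 2 numbers. Of 37 list medians 22 lay above 0, and 12 with the filter at 6. The difference of responses gave 0 calls in all of its fits. None of the 36 named calls changed sign in any of its fits. Signal near background limits probe sets at levels below 4, where GCRMA values carry little information on change.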
